A study of Mus musculus with 17 samples.

Results

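The effect of an overactive inflammasome sensor on the lung was set side by side in mice without intact Il18r1 and in mice whose genotype label names no Il18r1 allele. Of the 17 bulk RNA-seq libraries of mouse lung, 14 entered the comparison, and the 3 labelled Il181r+/- did not. They were chosen by genotype label and lie in 2 tables of FPKM (fragments counted per length of transcript and per size of library), so each change was taken within its own table and no library was shared. The null mutant group held 4 libraries labelled LysMcre, Nlrp3A350V and Il181r-/-, which is read here as Il18r1-/-. Its Il18r1 control group held 4 libraries labelled so. The Nlrp3 mutant group held 3 libraries labelled LysMcre and Nlrp3A350V, and its Control group held 3 libraries with the genotype control. LysMcre is a cre knock-in at Lyz2 that is active in myeloid cells, that is in macrophages, monocytes and neutrophils. Alveolar type 2 (AT2) cells of the lung epithelium also express Lyz2 and part of them can recombine, so the cre is not limited to myeloid cells. The labels do not give the alleles that the Il18r1 control and Control animals carry, nor strain, age, sex or litter, nor whether the libraries of a group came from separate animals. The error behind each p-value is thus the spread from library to library, which may be technical. A full Il18r1 locus in the Nlrp3 mutant and Control groups is inferred from labels that name no Il18r1 allele. The change without Il18r1 is the null mutant minus the Il18r1 control, so it can include an effect of losing Il18r1 by itself, and Il18r1 status and experiment cannot be told apart. All 24327 genes listed in both tables were taken, and the 13818 with at least 1 FPKM in 3 or more of the 14 libraries were tested.

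NLRP3 is a cytoplasmic sensor that, once active, assembles the inflammasome, a complex in which caspase-1 cuts the precursors of interleukin-1 beta and interleukin-18 into their active forms. A350V is a missense allele that leaves the sensor active without its usual trigger. Interleukin-18 binds the receptor chain encoded by Il18r1, recruits the accessory chain encoded by Il18rap and signals through MyD88 and IRAK kinases to NF-kB, while interleukin-1 beta uses a separate receptor and the same MyD88 relay. The series title names a path that runs through NLRP3, IL-18 and TNF and that disturbs the building of the gas exchange surface. The comparison asks how much of the Nlrp3 effect was present without intact Il18r1.

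Depth was estimated within each table only and was not compared between the tables. Relative to the first control library of its own table, it was 0.92 to 1.15 in the null mutants and Il18r1 controls and 0.79 to 1 in the Nlrp3 mutants and Controls. In the 14 libraries 13147 to 13358 genes reached 1 FPKM. Total FPKM was 473856 ± 8264 in the null mutants (SD, n = 4) and 488783 ± 7166 in the Il18r1 controls (SD, n = 4), against 529612 ± 19824 in the Nlrp3 mutants (SD, n = 3) and 472007 ± 11062 in the Controls (SD, n = 3). Defining lung transcripts were present throughout: Sftpc of alveolar type 2 cells ranged over the 14 libraries between 11256 and 27294 FPKM and Ager of type 1 cells between 617 and 934 FPKM. The sexes were not balanced. Xist was at 37.7 FPKM or more in null mutants 2 and 4 and in the 3 Nlrp3 mutants, and Y-linked genes were expressed in null mutants 1 and 3, the Il18r1 controls and the Controls. All 3 Nlrp3 mutants thus differed from all Controls in these genes, so sex and genotype cannot be told apart in the change in the Nlrp3 mutant. With null mutants 2 and 4 alone, both changes compare Xist-expressing mutants with controls that express Y-linked genes, and some results are also given that way.

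Transcripts of the targeted genes and of the IL-18 system came first. Il18r1 (chromosome 1, 40465552 to 40500854, GRCm38) was at 6.98, 9.00, 8.59 and 8.46 FPKM in the null mutants against 15.0, 14.0, 14.8 and 13.4 in the Il18r1 controls. For Il18r1 the Nlrp3 mutants had 43.4, 40.0 and 41.3 FPKM against 22.1, 17.9 and 22.2 in the Controls. Every null mutant lay below every Il18r1 control, every Nlrp3 mutant lay above every Control, and transcript was left in the null mutants. The log2 changes were -0.73 without Il18r1 and 0.98 in the Nlrp3 mutant (difference -1.70, SE 0.12, adjusted p = 1.9e-07). Nlrp3 (chromosome 11, 59541568 to 59566956) was at 3.59, 3.04, 4.00 and 3.58 FPKM in the null mutants against 0.945, 2.00, 0.709 and 2.30 in the Il18r1 controls. Nlrp3 was at 3.14, 2.73 and 2.95 FPKM in the Nlrp3 mutants against 0.973, 1.39 and 1.22 in the Controls, so in both experiments no mutant overlapped a control. Its changes of 0.92 without Il18r1 and 0.85 in the Nlrp3 mutant did not differ beyond their error (difference 0.07, SE 0.26, adjusted p = 0.84, 95% interval -0.49 to 0.63). Reads of a missense and of a normal allele are counted together, so the level of Nlrp3 is no check of the genotype.

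Il18, which encodes the ligand, was at 7.22, 4.23, 7.79 and 6.37 FPKM in the null mutants against 5.66, 4.42, 5.61 and 5.35 in the Il18r1 controls, where the groups overlap. For Il18 the Nlrp3 mutants had 21.2, 14.9 and 16.7 FPKM against 8.71, 5.88 and 7.14 in the Controls, where they do not. Its change was 0.22 without Il18r1, which did not pass, and 1.17 in the Nlrp3 mutant, which did (difference -0.95, SE 0.24, adjusted p = 0.0047). Il18rap, the accessory receptor chain, was raised in both settings, at 4.01, 5.57, 4.03 and 3.54 FPKM in the null mutants against 1.27, 0.896, 1.02 and 0.977 in the Il18r1 controls. Il18rap was at 7.11, 4.54 and 6.03 FPKM in the Nlrp3 mutants against 0.952, 0.771 and 1.24 in the Controls. The difference between its changes, 1.36 without Il18r1 and 1.78 in the Nlrp3 mutant, missed the threshold (difference -0.42, SE 0.20, adjusted p = 0.1, 95% interval -0.85 to 0.01). Il1b, the other inflammasome cytokine, was at 17.0, 38.8, 46.6 and 21.1 FPKM in the null mutants against 5.67, 5.11, 5.08 and 8.09 in the Il18r1 controls. For Il1b the Nlrp3 mutants had 20.4, 9.19 and 13.2 FPKM against 3.97, 3.07 and 7.12 in the Controls. It rose by 2.10 without Il18r1 and 1.41 in the Nlrp3 mutant, with no overlap in either experiment and a difference that did not pass (difference 0.68, SE 0.48, adjusted p = 0.26, 95% interval -0.34 to 1.71). Tnf stayed low, at 1.39, 0.691, 1.42 and 0.737 FPKM in the null mutants against 0.879, 0.800, 0.697 and 1.07 in the Il18r1 controls. Tnf was at 1.08, 1.19 and 1.54 FPKM in the Nlrp3 mutants against 0.848, 1.21 and 1.20 in the Controls, and passed in neither change (difference 0.01, SE 0.20, adjusted p = 0.98, 95% interval -0.41 to 0.43). Lyz2, the lysozyme gene that hosts the cre, was at 1240.2, 1170.1, 1296 and 1183 FPKM in the null mutants against 909.9, 1691, 1892 and 1886 in the Il18r1 controls, where Il18r1 control 1 was the lowest of the 8 libraries and the other 3 controls were above all null mutants. For Lyz2 the Nlrp3 mutants had 2233, 1624 and 1956 FPKM against 1122, 815 and 1132 in the Controls. Its changes were -0.33 without Il18r1 and 0.92 in the Nlrp3 mutant (difference -1.25, SE 0.30, adjusted p = 0.0039).

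Across the transcriptome far fewer genes passed without Il18r1 than in the Nlrp3 mutant, and the differences mostly opposed the change in the Nlrp3 mutant. A gene passed when its Benjamini-Hochberg adjusted p from limma, over all 13818 genes, was under 0.05. The change without Il18r1 passed in 297 genes (2.15%), 275 higher (1.99%) and 22 lower (0.159%). The change in the Nlrp3 mutant passed in 8279 genes (59.9%), 4091 higher (29.6%) and 4188 lower (30.3%). The difference of the 2 changes passed in 6215 genes (45.0%), 3146 higher (22.8%) and 3069 lower (22.2%), where higher means that the change without Il18r1 lay above that in the Nlrp3 mutant. With the libraries brought to an equal total FPKM within each of the 2 tables, the median difference over all genes moved by about 0.18 in log2 units (to 0.1845). The split became 5596 higher and 1637 lower, so the balance of higher and lower differences rests on the scaling. Differences of at least 1 in log2 that passed numbered 497 higher (3.60%) and 400 lower (2.89%). Using the null mutants with Xist alone, 2895 genes had a higher and 2789 a lower difference, and 5415 of the 6215 genes passed again.

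The direction of the difference was one-sided relative to the Nlrp3 effect. Of the 8279 genes changed in the Nlrp3 mutant, 6041 (73.0%) had a difference that passed and opposed the Nlrp3 change, 0 had one that enlarged it, and for 2238 the difference did not pass. Of the 1101 genes changed there by at least 1 in log2 (587 higher, 4.25% of all tested, and 514 lower, 3.72%), 995 (90.4%) had an opposing difference. Over all tested genes a difference in either direction passed in 45.0%. Of the 1101, 164 passed without Il18r1 in the same direction, 158 higher and 6 lower. A change under 0.5 in size without Il18r1 was found in 903 of the 1101 (82.0%). That share was not counted over all tested genes, whose median change without Il18r1 was -0.0077, so it is only a description. For the 587 raised genes among the 1101 the median change was 0.17 without Il18r1 and 1.39 in the Nlrp3 mutant. For the 514 lowered genes it was 0.0066 without Il18r1 and -1.35 in the Nlrp3 mutant. These counts read the same Nlrp3 change on both sides, so part of the opposition follows from choosing genes by it. Seen from the other side, 262 of the 297 genes changed without Il18r1 (88.2%) passed in the same direction in the Nlrp3 mutant, which is 3.16% of the 8279, and 4 passed in the opposite direction. Of the 102 genes raised by at least 1 without Il18r1 (0.738%), 96 were also raised in the Nlrp3 mutant. Among the 102 the difference was lower in 41, higher in 6 and did not pass in 55. In the authors' deposited table of the null mutant and Il18r1 control, 265 of the 275 raised and 19 of the 22 lowered genes were also called in that direction at an adjusted p under 0.05. That table calls more genes, with 524 higher and 125 lower in all and 605 calls among the 13818 genes tested here. By the calls of the authors' deposited table, 238 of the 1101 genes changed by at least 1 in the Nlrp3 mutant moved in the same direction without Il18r1, against 164 here. A gene that did not pass here without Il18r1 can thus be called there, as were Serpina3f, Ptpn5, Cp, Hp, Socs3, Lpl, Apoe, Tcf7, Hk2, Cxcl17 and Cyp2f2 among the genes named below.

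**Figure D1:**
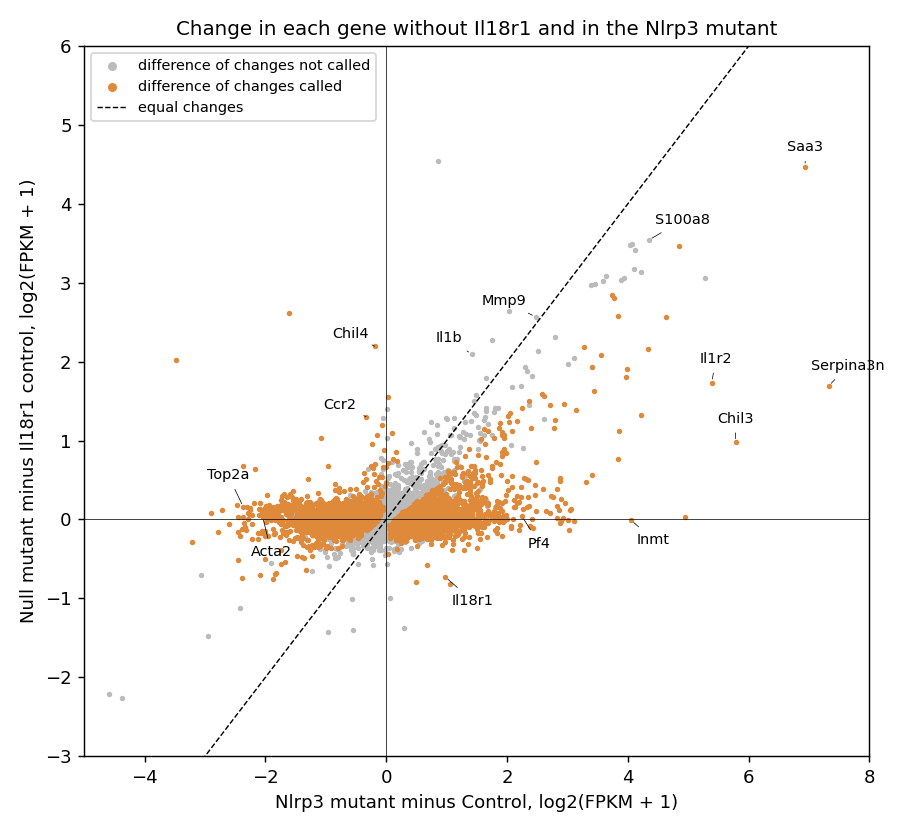
Change of each tested gene in log2(FPKM + 1), null mutant minus Il18r1 control on the vertical axis and Nlrp3 mutant minus Control on the horizontal axis, 1 point per gene (Mir703, outside the axes, is left out). Most points lie along the horizontal line at 0, and a smaller arm that holds S100a8, Mmp9 and Il1b runs near the dashed line of equal changes.

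The 10 genes with the most negative differences all rose in the Nlrp3 mutant, and of them Serpina3n and Il1r2 also passed as higher without Il18r1. Serpina3n (chromosome 12, 104406729 to 104414329), a secreted serine protease inhibitor of the acute phase, was at 4.32, 4.69, 6.92 and 14.7 FPKM in the null mutants against 1.44, 1.10, 1.12 and 2.19 in the Il18r1 controls. Serpina3n was at 326, 294 and 306 FPKM in the Nlrp3 mutants against 0.899, 0.894 and 0.996 in the Controls. Mutants and controls did not overlap in either experiment, and the changes were 1.69 without Il18r1 and 7.32 in the Nlrp3 mutant (difference -5.63, SE 0.39, adjusted p = 1.7e-07). Serpina3n has close copies among which reads may be split, so its level is uncertain. Chil3 (chromosome 3, 106147554 to 106167564), a chitinase-like protein of macrophages and neutrophil precursors, was at 15.7, 18.3, 22.2 and 12.7 FPKM in the null mutants against 6.03, 4.62, 6.30 and 22.6 in the Il18r1 controls, where Il18r1 control 4 was above the highest null mutant. For Chil3 the Nlrp3 mutants had 866, 395 and 641 FPKM against 12.8, 5.46 and 13.9 in the Controls. Its changes were 0.98 without Il18r1 and 5.78 in the Nlrp3 mutant (difference -4.81, SE 0.61, adjusted p = 2.7e-05). Inmt (chromosome 6, 55170626 to 55175043), a methyltransferase gene of lung fibroblasts, was at 39.4, 28.7, 41.6 and 36.2 FPKM in the null mutants against 42.5, 30.7, 30.9 and 43.3 in the Il18r1 controls. Inmt was at 124, 351 and 228 FPKM in the Nlrp3 mutants against 9.60, 9.47 and 18.9 in the Controls. Null mutants and Il18r1 controls overlapped, and the changes were -0.01 without Il18r1 and 4.05 in the Nlrp3 mutant (difference -4.06, SE 0.42, adjusted p = 4.1e-06).

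Il1r2 (chromosome 1, 40074079 to 40125231), a decoy receptor that binds interleukin-1 without signalling and that neutrophils carry, was at 3.25, 4.23, 2.60 and 2.05 FPKM in the null mutants against 0.108, 0.422, 0.119 and 0.130 in the Il18r1 controls. For Il1r2 the Nlrp3 mutants had 64.0, 36.3 and 52.2 FPKM against 0.257, 0.0593 and 0.319 in the Controls. No mutant overlapped a control in either experiment, and the changes were 1.73 without Il18r1 and 5.39 in the Nlrp3 mutant (difference -3.65, SE 0.27, adjusted p = 2.8e-07). With controls this low, the log2(FPKM + 1) scale understates the change in either experiment. The authors' deposited table gives Il1r2 a log2 fold change of 4.00 without Il18r1 (adjusted p = 3.6e-29). Igfbp3, which binds insulin-like growth factors, was at 9.74, 11.9, 10.4 and 11.7 FPKM in the null mutants against 10.8, 11.8, 15.1 and 10.8 in the Il18r1 controls. Igfbp3 was at 81.7, 109 and 92.9 FPKM in the Nlrp3 mutants against 9.47, 9.06 and 14.0 in the Controls (difference -3.16, SE 0.20, adjusted p = 1.1e-07). Null mutants and Il18r1 controls overlapped, while each Nlrp3 mutant exceeded each Control. Serpina3f, Smoc2, Pdk4, Gdpd2 and Ear6 completed the 10, with differences between -3.12 and -2.92. Of these Smoc2, a matricellular protein gene, was at 3.18, 4.14, 3.26 and 4.00 FPKM in the null mutants against 3.84, 3.61, 3.73 and 3.39 in the Il18r1 controls. For Smoc2 the Nlrp3 mutants had 38.1, 43.3 and 38.8 FPKM against 4.03, 4.26 and 3.93 in the Controls (difference -3.02, SE 0.11, adjusted p = 1.7e-09). Pdk4, a kinase that shuts off pyruvate dehydrogenase and a glucocorticoid target, had changes of -0.05 without Il18r1 and 2.88 in the Nlrp3 mutant (difference -2.93, SE 0.21, adjusted p = 2.4e-07).

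The 10 genes with the most positive differences had mostly fallen in the Nlrp3 mutant. Prss35, a serine protease-like gene, was at 106, 110.4, 118 and 135 FPKM in the null mutants against 117, 108, 113 and 105 in the Il18r1 controls. Prss35 was at 15.6, 9.07 and 12.6 FPKM in the Nlrp3 mutants against 102, 95.7 and 94.1 in the Controls (difference 2.97, SE 0.18, adjusted p = 7.1e-08). Ptpn5, a tyrosine phosphatase, was at 11.6, 12.7, 11.7 and 11.5 FPKM in the null mutants against 13.8, 15.7, 13.6 and 15.6 in the Il18r1 controls. For Ptpn5 the Nlrp3 mutants had 0.191, 0.0242 and 0.209 FPKM against 8.77, 10.8 and 9.31 in the Controls (difference 2.94, SE 0.12, adjusted p = 2e-09). Null mutants overlapped the Il18r1 controls in Prss35 and lay below them in Ptpn5, while each Nlrp3 mutant was far below each Control in both genes. Fam64a, Slitrk6, Etv4 and Top2a had changes between -0.15 and 0.16 without Il18r1, none of which passed, and between -2.78 and -2.37 in the Nlrp3 mutant. Mb, the oxygen store of heart and skeletal muscle, was at 43.2, 51.2, 31.7 and 45.3 FPKM in the null mutants against 24.8, 33.8, 37.7 and 16.2 in the Il18r1 controls. Mb was at 6.14, 3.21 and 4.24 FPKM in the Nlrp3 mutants against 24.6, 39.8 and 12.6 in the Controls (difference 2.80, SE 0.47, adjusted p = 0.00028). Clca1, a secreted protein of mucous cells, was at 6.51, 31.3, 60.5 and 9.75 FPKM in the null mutants against 0.105, 1.61, 5.61 and 4.94 in the Il18r1 controls. For Clca1 the Nlrp3 mutants had 0.172, 0.0250 and 0.162 FPKM against 0.766, 3.83 and 3.60 in the Controls. Neither of its changes passed (2.62 without Il18r1 and -1.60 in the Nlrp3 mutant) although their difference did (difference 4.22, SE 0.99, adjusted p = 0.0032), and the null mutants ranged widely. Mir703 and Snora81 gave the 2 most positive differences, 16.39 and 5.50. Both are small RNA genes that poly(A) libraries cover poorly, and both were listed at 0 in all 4 Il18r1 controls and all 3 Nlrp3 mutants, Mir703 in null mutant 2 and Snora81 in null mutants 2 and 4. Mir703 was at 2591, 0, 866 and 278 FPKM in the null mutants and 359, 594 and 744 FPKM in the Controls, and the fitted size depends on the pseudocount. Snora81 had a change of 2.02 without Il18r1 here but is not called in the authors' deposited table (log2 fold change -0.05, adjusted p = 0.969).

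A second set of genes had near-equal changes in both settings. Mmp9 (chromosome 2, 164940780 to 164955850), the gelatinase of neutrophil granules, was at 17.6, 16.3, 19.4 and 17.7 FPKM in the null mutants against 3.04, 1.86, 1.89 and 1.98 in the Il18r1 controls. Mmp9 was at 36.3, 25.5 and 32.5 FPKM in the Nlrp3 mutants against 4.83, 4.00 and 5.65 in the Controls. Mutants and controls did not overlap in either experiment, and the changes were 2.57 without Il18r1 and 2.47 in the Nlrp3 mutant (difference 0.10, SE 0.19, adjusted p = 0.71, 95% interval -0.32 to 0.51). Among the genes that passed in the same direction in both settings by at least 1, those with the smallest differences included Spi1, Igsf6, Emilin2, Mmp9, Selplg, Ugt1a7c, Pi16, Trem3 and Clec4e. The choice fixes that their differences are small, so their values are a description. Spi1, the myeloid transcription factor PU.1, was at 42.2, 28.5, 26.4 and 22.4 FPKM in the null mutants against 17.9, 12.3, 11.2 and 12.8 in the Il18r1 controls. For Spi1 the Nlrp3 mutants had 54.2, 43.9 and 49.7 FPKM against 21.1, 19.6 and 29.4 in the Controls (changes 1.07 without Il18r1 and 1.06 in the Nlrp3 mutant). Selplg, the selectin ligand with which leukocytes roll on vessel walls, changed by 1.06 without Il18r1 and 1.20 in the Nlrp3 mutant. The 95% intervals of these differences were of unequal width, from -0.51 to 0.18 for Ugt1a7c to -0.68 to 1.21 for Trem3, so equal changes are not shown.

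**Figure D2:**
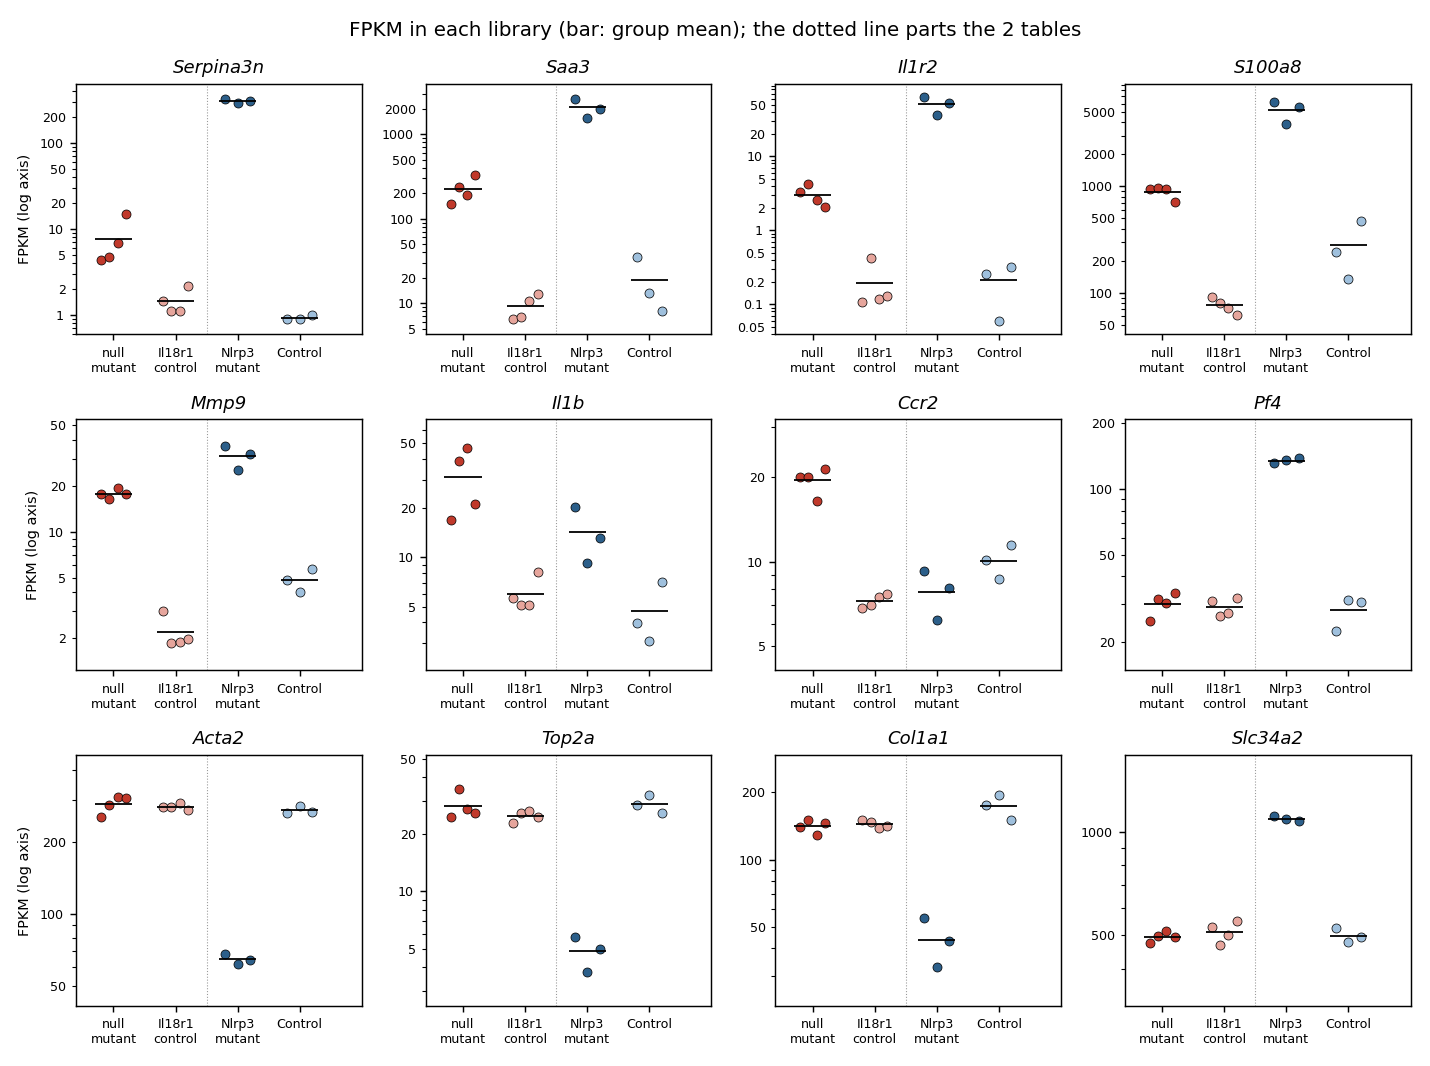
FPKM of 12 genes in each of the 14 libraries on a log axis, with null mutants, Il18r1 controls, Nlrp3 mutants and Controls set out along the horizontal axis in that sequence and a bar at each group mean. Mmp9 and S100a8 are raised in both kinds of mutant, Serpina3n and Il1r2 far more in the Nlrp3 mutants, and Pf4, Acta2, Top2a, Col1a1 and Slc34a2 separate the Nlrp3 mutants from the Controls while null mutants and Il18r1 controls overlap.

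Changes that passed in both experiments in opposite directions were found in 4 genes, Mir703, Il18r1, Ccr2 and Ndufab1. Ccr2 (chromosome 9, 124101950 to 124113557), the chemokine receptor with which classical monocytes leave the marrow, was at 19.9, 20.0, 16.4 and 21.3 FPKM in the null mutants against 6.83, 7.03, 7.46 and 7.65 in the Il18r1 controls. For Ccr2 the Nlrp3 mutants had 9.28, 6.19 and 8.03 FPKM against 10.1, 8.65 and 11.5 in the Controls. All null mutants were above all Il18r1 controls, while the Nlrp3 mutants and Controls overlapped, and the changes were 1.30 without Il18r1 and -0.34 in the Nlrp3 mutant (difference 1.64, SE 0.16, adjusted p = 3.1e-06). Ndufab1, a mitochondrial acyl carrier protein, had changes of 0.30 without Il18r1 and -0.29 in the Nlrp3 mutant (difference 0.59, SE 0.11, adjusted p = 0.0005). In the authors' deposited table Il18r1 and Ccr2 are called in the same direction without Il18r1, while Mir703 (log2 fold change 1.71, adjusted p = 0.304) and Ndufab1 (log2 fold change 0.19, adjusted p = 0.193) are not called. A further 18 genes rose without Il18r1, did not pass in the Nlrp3 mutant and had a higher difference, and 2 fell with a lower difference. Named after their values were seen, Chil4, a chitinase-like protein of airway epithelium in allergic lung, was at 3.35, 11.5, 18.4 and 4.06 FPKM in the null mutants against 0.0944, 0.460, 1.02 and 2.77 in the Il18r1 controls. Chil4 was at 0.105, 0.846 and 1.25 FPKM in the Nlrp3 mutants against 0.314, 0.569 and 2.33 in the Controls (difference 2.39, SE 0.75, adjusted p = 0.018). Malat1, a nuclear long noncoding RNA, was at 179.9, 177, 205 and 223 FPKM in the null mutants against 93.2, 101, 99.4 and 108 in the Il18r1 controls. For Malat1 the Nlrp3 mutants had 119, 133 and 141 FPKM against 210.4, 160.1 and 108 in the Controls (difference 1.19, SE 0.23, adjusted p = 0.00075). Cd300lb, an activating receptor of myeloid cells, was at 5.98, 4.90, 7.03 and 6.54 FPKM in the null mutants against 2.77, 2.37, 2.23 and 1.95 in the Il18r1 controls. Cd300lb was at 3.32, 2.91 and 3.28 FPKM in the Nlrp3 mutants against 2.50, 2.63 and 3.62 in the Controls (difference 0.99, SE 0.17, adjusted p = 0.0003). For each of these 3 the null mutants did not overlap the Il18r1 controls.

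Gene lists of cell types and pathways were read by their counts and medians, beside the shares over all genes given above and medians over all genes of -0.0077 without Il18r1, -0.0025 in the Nlrp3 mutant and -0.0012 for the difference. Where 0 members of a list passed in a direction without Il18r1, the authors' deposited table calls at most 3 of its tested members in that direction, and it calls 0 mitosis, replication and metallothionein and glucocorticoid target genes. Mature neutrophil markers rose in both settings. Of 20 tested members, 18 rose without Il18r1 (median change 1.71) and 18 in the Nlrp3 mutant (median 2.27), and the difference was lower in 7 and higher in 0 (median -0.55). The count of lower differences was 13 without Control 3 and 4 without Nlrp3 mutant 1, Nlrp3 mutant 3 or Control 2 and with a pseudocount of 0.1. Summed over the list, FPKM was 2606 to 3632 in the null mutants against 509 to 610.3 in the Il18r1 controls, and 10250.0 to 16250.0 in the Nlrp3 mutants against 574 to 1626 in the Controls, where Control 3 was the highest. In bulk tissue, more or fewer cells of a type and more or less RNA per cell cannot be told apart. S100a8, which makes up calprotectin together with S100a9, was at 944, 963, 942 and 714 FPKM in the null mutants against 90.3, 80.4, 71.4 and 61.1 in the Il18r1 controls. For S100a8 the Nlrp3 mutants had 6153, 3887 and 5525 FPKM against 242, 135 and 473 in the Controls (difference -0.81, SE 0.43, adjusted p = 0.14). Retnlg changed by 3.49 without Il18r1 and 4.07 in the Nlrp3 mutant, and Csf3r, the receptor for the growth factor G-CSF, by 2.28 without Il18r1 and 1.75 in the Nlrp3 mutant, and neither difference passed. The members with the smallest p of the difference were Il1r2, the collagenase Mmp8 (2.57 without Il18r1 and 4.63 in the Nlrp3 mutant, difference -2.06, SE 0.34, adjusted p = 0.00023) and Lcn2, which captures bacterial iron carriers (1.38 without Il18r1 and 3.14 in the Nlrp3 mutant, difference -1.76, SE 0.31, adjusted p = 0.00037).

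Acute phase and antimicrobial genes were raised in both settings and more in the Nlrp3 mutant. Lcn2 is in this list and in those of mature neutrophil markers and neutrophil granule precursor genes, and Ltf is in this list and the precursor list. The counts of these lists are thus not independent. Of 21 tested, 13 rose without Il18r1 (median 1.33) and 20 in the Nlrp3 mutant (median 2.71), with a lower difference in 16 (median -1.25). Saa3, serum amyloid A of inflamed tissue, was at 150.3, 238, 191 and 328 FPKM in the null mutants against 6.46, 6.94, 10.5 and 12.9 in the Il18r1 controls. Saa3 was at 2643, 1559.5 and 2008 FPKM in the Nlrp3 mutants against 34.8, 13.1 and 7.98 in the Controls (difference -2.47, SE 0.55, adjusted p = 0.0024). It had the highest change without Il18r1 of any gene that passed other than Mir703. Hp, haptoglobin, behaved otherwise, at 387, 350.2, 447 and 315 FPKM in the null mutants against 318, 301, 319 and 268 in the Il18r1 controls with overlapping groups, and at 2532, 1799 and 2155 FPKM in the Nlrp3 mutants against 288, 283 and 407 in the Controls (difference -2.43, SE 0.21, adjusted p = 7.5e-07). Orm1, an acute phase plasma protein, had changes of 0.11 without Il18r1 and 2.64 in the Nlrp3 mutant, and Cp, ceruloplasmin, of 0.21 without Il18r1 and 1.68 in the Nlrp3 mutant. Neither passed without Il18r1, and both had lower differences. In the authors' deposited table Cp is called higher without Il18r1 (log2 fold change 0.25, adjusted p = 0.0013) and 16 members of the list are called higher. Orm1 is not called there (log2 fold change 0.88, adjusted p = 0.569). Steap4, a metalloreductase, rose in both, with 1.63 without Il18r1 and 3.43 in the Nlrp3 mutant, as did C3, the central complement component, with 0.85 without Il18r1 and 1.92 in the Nlrp3 mutant. Lrg1, a secreted glycoprotein of neutrophils and liver, rose by 2.58 without Il18r1 and 3.83 in the Nlrp3 mutant (difference -1.25, SE 0.41, adjusted p = 0.024). Lrg1 lost its call of the difference without Nlrp3 mutant 1 (adjusted p = 0.06) and without Control 2 (adjusted p = 0.067). Neutrophil granule precursor genes followed, with 6 of 10 higher without Il18r1 (median 1.23), 10 higher in the Nlrp3 mutant (median 2.52) and 8 lower differences. Among neutrophil-attracting chemokines and growth factors, 0 of 10 passed without Il18r1 (median 0.47), 8 rose in the Nlrp3 mutant (median 1.94) and 5 had lower differences, or 8 without null mutant 3. The authors' deposited table calls 3 of them higher without Il18r1, among them the chemokines Cxcl1 (log2 fold change 2.82, adjusted p = 0.00077) and Cxcl2 (log2 fold change 2.50, adjusted p = 0.031). Pf4 and Ppbp, which are also platelet genes, were among the 5 with lower differences.

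The promoters of acute phase genes were read because a group of them moved together. In RefSeq promoters of GRCm38.p6, 250 bases before to 50 after the first listed start, the string TTGCNNAA, the core that C/EBP factors bind, was searched on both strands. It stood in 11 of 18 acute phase promoters (61.1%) and in 2906 of 27025 promoters (10.8%). Other lists also lay above the share in all promoters. The string was in 42.9% of neutrophil granule precursor, 30.8% of IL-1 family and 30.0% of mature neutrophil promoters, while monocyte markers had 0.0%. The strings were chosen after values were seen, and 4 others were searched. In acute phase promoters CCAAT stood in 4 of 18 (22.2%) against 37.9% in all, TTTGAA in 4 of 18 (22.2%) against 18.1%, TTCNNNGAA, the STAT string, in 2 of 18 (11.1%) against 8.5%, and TGCNCNC, the metal response core, in 11 of 18 (61.1%) against 50.4%. The 150 bases before the start are shown for 3 members, with the matches in capitals, as examples of where the string lies and chosen because their difference passed:
Saa3 (chr7:46715677-46715826, minus strand): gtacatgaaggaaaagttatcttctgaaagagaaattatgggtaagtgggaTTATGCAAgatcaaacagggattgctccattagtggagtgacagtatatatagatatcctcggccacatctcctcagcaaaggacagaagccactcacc
Steap4 (chr5:7960322-7960471, plus strand): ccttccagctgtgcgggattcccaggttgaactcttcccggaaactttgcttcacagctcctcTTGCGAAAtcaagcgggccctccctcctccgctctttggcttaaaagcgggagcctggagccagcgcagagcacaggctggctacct
C3 (chr17:57228137-57228286, minus strand): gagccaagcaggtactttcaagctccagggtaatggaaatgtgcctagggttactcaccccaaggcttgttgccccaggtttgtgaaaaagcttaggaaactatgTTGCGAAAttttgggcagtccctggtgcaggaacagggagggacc
In Saa3 the match is on the opposite strand and reads in reverse complement. A match is a description of letters and not evidence of binding.

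**Figure D3:**
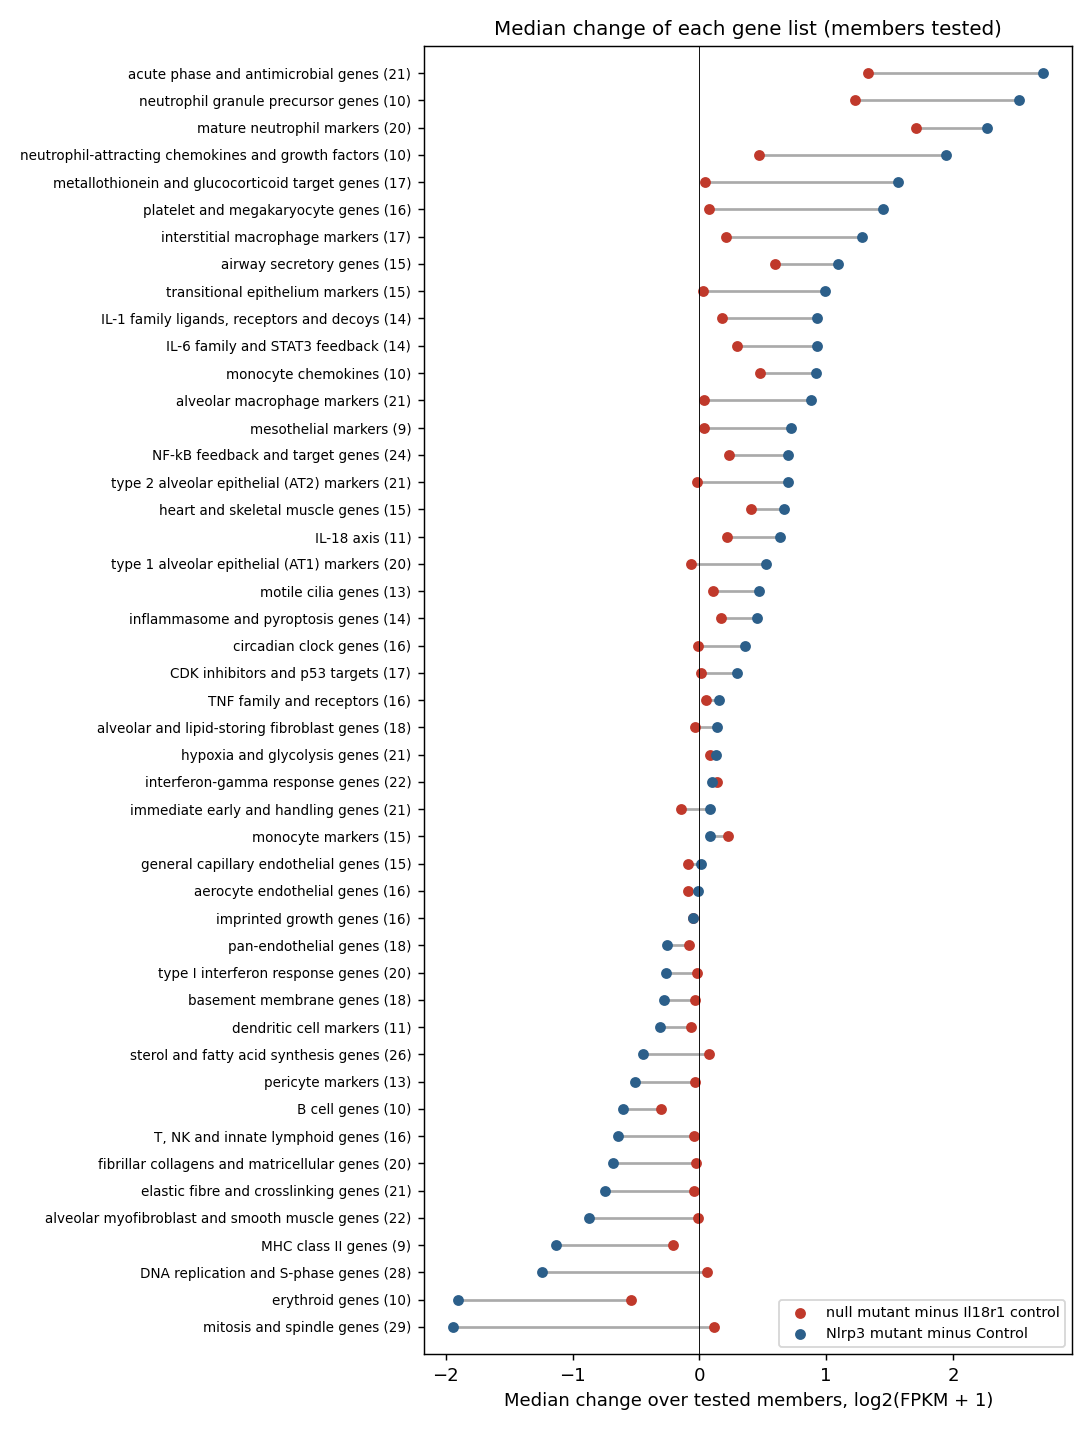
Median change of each gene list over its tested members (number in brackets) in log2(FPKM + 1), null mutant minus Il18r1 control in red and Nlrp3 mutant minus Control in blue. The red points of mature neutrophil markers, neutrophil granule precursor genes and acute phase genes lie between 1.23 and 1.71. That of neutrophil-attracting chemokines lies at 0.47, and those of most other lists lie closer to 0 whether the blue points are positive or negative.

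Macrophage markers rose mostly in the Nlrp3 mutant. Of 21 alveolar macrophage markers, 0 rose and 0 fell without Il18r1 (median 0.04), 18 rose and 1 fell in the Nlrp3 mutant (median 0.88), and 13 had a lower difference. Lpl, lipoprotein lipase, is also counted in the list of general capillary endothelial genes, so it is not particular to macrophages here. It was at 20.2, 19.2, 17.0 and 23.4 FPKM in the null mutants against 16.6, 16.2, 17.0 and 14.9 in the Il18r1 controls. For Lpl the Nlrp3 mutants had 107, 138 and 120.1 FPKM against 22.1, 21.9 and 25.3 in the Controls (difference -2.06, SE 0.14, adjusted p = 1.5e-07). Mrc1, the mannose receptor, also counted among interstitial macrophage markers, changed by 0.16 without Il18r1 and 1.28 in the Nlrp3 mutant (difference -1.12, SE 0.11, adjusted p = 2.3e-06). Of 17 interstitial macrophage markers, 5 rose without Il18r1 (median 0.21), and 12 rose and 1 fell in the Nlrp3 mutant (median 1.28). The difference was lower in 10 and higher in 1. The count without Il18r1 was 2 without Il18r1 control 1 or 3 and with the null mutants that express Xist, and 3 without null mutant 1 or 4 or Il18r1 control 2 or 4. Cd163, the haemoglobin scavenger receptor, was at 0.692, 0.639, 0.657 and 0.457 FPKM in the null mutants against 0.593, 0.578, 0.780 and 0.453 in the Il18r1 controls. Cd163 was at 6.02, 6.26 and 6.64 FPKM in the Nlrp3 mutants against 0.636, 0.712 and 0.759 in the Controls (difference -2.09, SE 0.12, adjusted p = 5.2e-08). Apoe, which carries lipid, had changes of 0.21 without Il18r1 and 1.91 in the Nlrp3 mutant. The complement gene C1qa rose in both, by 0.43 without Il18r1 and 1.40 in the Nlrp3 mutant, with a lower difference.

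Monocyte markers went in both directions. Of 15, 3 rose without Il18r1 and 6 rose and 5 fell in the Nlrp3 mutant, with 4 higher and 4 lower differences. The 3 that rose without Il18r1 were Ccr2, Ly6c2 and F13a1. Ly6c2, an antigen of classical monocytes, rose by 0.92 without Il18r1 and 1.23 in the Nlrp3 mutant with a difference that did not pass (difference -0.30, SE 0.23, adjusted p = 0.31), and F13a1, a clotting factor subunit made by monocytes, by 0.55 without Il18r1 and 2.08 in the Nlrp3 mutant (difference -1.53, SE 0.13, adjusted p = 5.7e-07). Treml4, a marker of nonclassical monocytes, was at 13.8, 2.77, 7.88 and 5.82 FPKM in the null mutants against 7.27, 6.22, 4.44 and 4.76 in the Il18r1 controls. For Treml4 the Nlrp3 mutants had 1.60, 0.857 and 1.54 FPKM against 6.20, 7.97 and 16.8 in the Controls (difference 2.40, SE 0.53, adjusted p = 0.0023). Platelet and megakaryocyte genes gave 1 of 16 higher without Il18r1 (median 0.08), and 15 higher and 1 lower in the Nlrp3 mutant (median 1.45). The difference was lower in 15 and higher in 1 (median -1.29). Pf4, the chemokine of platelet granules, was at 24.9, 31.5, 30.2 and 33.8 FPKM in the null mutants against 30.8, 26.3, 27.3 and 31.8 in the Il18r1 controls. Pf4 was at 132, 135 and 139 FPKM in the Nlrp3 mutants against 22.5, 31.1 and 30.6 in the Controls (difference -2.20, SE 0.16, adjusted p = 2.4e-07). Summed over the list, FPKM was 225 to 275 in the null mutants against 236 to 278 in the Il18r1 controls, and 454 to 456 in the Nlrp3 mutants against 232 to 258 in the Controls.

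Lists that fell in the Nlrp3 mutant included erythroid, B cell and antigen presentation genes. Of 10 erythroid genes, 0 fell without Il18r1 (median -0.54), 10 fell in the Nlrp3 mutant (median -1.91), and 9 had a higher difference. Their summed FPKM was 12800.0 to 16960.0 in the null mutants against 18350.0 to 32540.0 in the Il18r1 controls, without overlap, and 3098 to 8029 in the Nlrp3 mutants against 20070.0 to 23970.0 in the Controls. The part of blood and neutrophil content in the other differences was not tested. Of 9 MHC class II genes, 9 had a higher difference, 9 fell in the Nlrp3 mutant (median -1.13) and 0 passed without Il18r1 (median -0.21). Cd74, the invariant chain of class II molecules, was at 196, 217, 257 and 192 FPKM in the null mutants against 269, 238, 227 and 289 in the Il18r1 controls. For Cd74 the Nlrp3 mutants had 42.0, 28.6 and 40.3 FPKM against 184, 190.3 and 152 in the Controls (difference 1.98, SE 0.19, adjusted p = 2.5e-06). Of 10 B cell genes, 2 fell without Il18r1 (median -0.30) and 7 in the Nlrp3 mutant (median -0.61), with 5 higher differences. The authors' deposited table calls 5 B cell and 2 erythroid genes lower without Il18r1. Cd79a, a chain of the B cell receptor, fell in both, with changes of -0.76 without Il18r1 and -1.87 in the Nlrp3 mutant (difference 1.12, SE 0.23, adjusted p = 0.0013). For T, NK and innate lymphoid genes, 0 of 16 rose and 0 fell without Il18r1, and 2 rose and 11 fell in the Nlrp3 mutant. Of these 16, 7 had a higher difference, or 11 at equal total FPKM, and 1 had a lower difference. Tcf7, a T cell transcription factor, had changes of -0.19 without Il18r1 and -1.09 in the Nlrp3 mutant (difference 0.90, SE 0.09, adjusted p = 2.5e-06).

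Signalling genes passed more often in the Nlrp3 mutant than without Il18r1, as did all tested genes (59.9% against 2.15%). Of 11 tested IL-18 axis genes, 2 rose and 1 fell without Il18r1, 10 rose in the Nlrp3 mutant and 5 had a lower difference. Besides Il18r1 and Il18 these were the adaptor Myd88 (0.28 without Il18r1 and 0.80 in the Nlrp3 mutant), the kinase Irak2 (-0.06 without Il18r1 and 0.35 in the Nlrp3 mutant) and the ubiquitin ligase Traf6 (-0.01 without Il18r1 and 0.27 in the Nlrp3 mutant). Irak2 lost its call at equal total FPKM (adjusted p = 0.127), where 3 IL-18 axis genes were lower, and without Nlrp3 mutant 2 the count was 8. Among 24 NF-kB feedback and target genes, 1 rose without Il18r1 (median 0.24), and 17 rose and 1 fell in the Nlrp3 mutant (median 0.70). There were 8 lower differences and 1 higher. At equal total FPKM these were 5 and 4. The authors' deposited table calls 7 of the NF-kB genes higher without Il18r1. Nfkbia, the inhibitor that NF-kB induces against itself, was at 58.2, 76.8, 80.0 and 58.5 FPKM in the null mutants against 57.7, 52.5, 53.3 and 64.0 in the Il18r1 controls. Nfkbia was at 221, 128 and 179 FPKM in the Nlrp3 mutants against 53.6, 54.0 and 64.6 in the Controls (difference -1.32, SE 0.23, adjusted p = 0.00031). Tnfaip3, a feedback deubiquitinase, had changes of 0.27 without Il18r1 and 1.42 in the Nlrp3 mutant (difference -1.15, SE 0.33, adjusted p = 0.011). Of 16 TNF family genes, 1 rose without Il18r1, 8 rose and 4 fell in the Nlrp3 mutant, and 2 higher and 7 lower differences passed. At equal total FPKM 5 were higher, and the median difference was 0.08 in place of -0.12. The receptor Tnfrsf1a was at 90.3, 89.7, 90.6 and 86.3 FPKM in the null mutants against 91.7, 87.2, 83.9 and 88.6 in the Il18r1 controls. For Tnfrsf1a the Nlrp3 mutants had 119, 109 and 112 FPKM against 66.4, 72.0 and 83.1 in the Controls (difference -0.60, SE 0.09, adjusted p = 0.0001). Tnfsf14, the ligand LIGHT, rose in both, by 1.22 without Il18r1 and 1.88 in the Nlrp3 mutant (difference -0.66, SE 0.17, adjusted p = 0.0061), and its difference did not pass with a pseudocount of 0.1 (adjusted p = 0.0942).

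Among 14 genes of the IL-6 family and STAT3 feedback, 1 rose without Il18r1 (median 0.29), 12 rose in the Nlrp3 mutant (median 0.93) and 10 had a lower difference. The authors' deposited table calls 7 of these higher without Il18r1, among them Socs3 (log2 fold change 0.57, adjusted p = 0.00019). Socs3, the feedback inhibitor of STAT3, had changes of 0.51 without Il18r1 and 1.71 in the Nlrp3 mutant (difference -1.20, SE 0.34, adjusted p = 0.01). Its relative Socs1 went the other way, with 0.17 without Il18r1 and -1.04 in the Nlrp3 mutant (difference 1.21, SE 0.19, adjusted p = 0.00018). Metallothionein and glucocorticoid target genes gave 0 of 17 passing without Il18r1 (median 0.05), 16 higher in the Nlrp3 mutant (median 1.57) and 15 lower differences (median -1.32). Fkbp5, a chaperone of the glucocorticoid receptor, was at 6.34, 6.76, 6.56 and 5.79 FPKM in the null mutants against 6.11, 5.57, 5.79 and 4.98 in the Il18r1 controls. Fkbp5 was at 53.8, 23.4 and 40.0 FPKM in the Nlrp3 mutants against 5.91, 6.75 and 7.00 in the Controls (difference -2.18, SE 0.26, adjusted p = 1.6e-05). Zbtb16, another glucocorticoid target, had changes of 0.12 without Il18r1 and 2.85 in the Nlrp3 mutant (difference -2.73, SE 0.48, adjusted p = 0.00042). Inflammasome genes were mixed, with 3 of 14 higher without Il18r1, 8 higher and 1 lower in the Nlrp3 mutant, and 5 lower and 1 higher differences. The authors' deposited table calls 5 inflammasome and 4 IL-18 axis genes higher without Il18r1. Without null mutant 2 or Il18r1 control 3, and at equal total FPKM, 3 inflammasome genes had a lower difference. Among the 5 was Casp4, the sensor protease for intracellular lipopolysaccharide (0.65 without Il18r1 and 1.75 in the Nlrp3 mutant, difference -1.10, SE 0.20, adjusted p = 0.00048). Interferon-gamma response genes, which interleukin-18 can raise through T and NK cells, passed rarely. Of 22, 0 rose without Il18r1 (median 0.14), 3 rose and 3 fell in the Nlrp3 mutant (median 0.10), and 3 had a higher difference.

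Most epithelial markers rose in the Nlrp3 mutant. Few passed without Il18r1, as was so over all tested genes (1.99% higher and 0.159% lower). Of 21 AT2 markers, 2 rose without Il18r1 (median -0.01) and 21 in the Nlrp3 mutant (median 0.70), and 16 had a lower difference (median -0.64). Slc34a2, a phosphate transporter of AT2 cells, was at 476, 497, 514 and 494 FPKM in the null mutants against 528, 467, 501 and 549 in the Il18r1 controls. For Slc34a2 the Nlrp3 mutants had 1115, 1089 and 1077 FPKM against 523, 478 and 495 in the Controls (difference -1.18, SE 0.08, adjusted p = 1.9e-07). Ctsh, a protease that processes surfactant proteins, had changes of 0.06 without Il18r1 and 1.70 in the Nlrp3 mutant, and Sftpd, surfactant protein D, of 0.16 without Il18r1 and 1.48 in the Nlrp3 mutant. Of 20 AT1 markers, 0 rose and 0 fell without Il18r1, and 14 rose and 1 fell in the Nlrp3 mutant. The difference was lower in 14 and higher in 1. Hopx, a nuclear protein of AT1 cells, had changes of -0.07 without Il18r1 and 1.06 in the Nlrp3 mutant. Markers of transitional epithelium, the state between AT2 and AT1 cells, gave 1 of 15 higher without Il18r1 (median 0.03). In the Nlrp3 mutant 13 were higher and 1 was lower (median 0.99), with 12 lower differences and 1 higher. Cldn4, a tight junction protein, was at 14.2, 9.61, 11.4 and 10.2 FPKM in the null mutants against 11.6, 11.8, 12.3 and 9.64 in the Il18r1 controls. Cldn4 was at 37.1, 59.6 and 47.0 FPKM in the Nlrp3 mutants against 10.0, 10.8 and 13.1 in the Controls (difference -1.98, SE 0.21, adjusted p = 5.7e-06). Of mesothelial markers, 9 of 9 were higher in the Nlrp3 mutant, 0 passed without Il18r1 and 9 had a lower difference.

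Most genes of the contractile and matrix-building stroma fell in the Nlrp3 mutant. Of 22 alveolar myofibroblast and smooth muscle genes, 0 rose and 0 fell without Il18r1 (median -0.01). In the Nlrp3 mutant 1 rose and 17 fell (median -0.87), and the difference was higher in 15 and lower in 1 (median 0.75). Acta2, smooth muscle actin, was at 255, 287, 308 and 307 FPKM in the null mutants against 281, 281, 291 and 273 in the Il18r1 controls. For Acta2 the Nlrp3 mutants had 68.6, 62.3 and 64.3 FPKM against 264, 283 and 268 in the Controls (difference 2.08, SE 0.09, adjusted p = 3e-09). Null mutants and Il18r1 controls overlapped, and each Nlrp3 mutant was below each Control. Of 20 fibrillar collagen and matricellular genes, 1 rose and 0 fell without Il18r1, and 5 rose and 12 fell in the Nlrp3 mutant. The difference was higher in 12 and lower in 1. Col1a1, a chain of type I collagen, was at 141, 151, 129 and 145 FPKM in the null mutants against 149.9, 147, 138 and 142 in the Il18r1 controls. Col1a1 was at 54.4, 33.1 and 42.9 FPKM in the Nlrp3 mutants against 175, 196 and 150.1 in the Controls (difference 1.96, SE 0.18, adjusted p = 1.3e-06). Tnc, tenascin C, had changes of -0.12 without Il18r1 and -2.38 in the Nlrp3 mutant (difference 2.26, SE 0.15, adjusted p = 1.2e-07). The 1 member that rose without Il18r1 was the metalloprotease inhibitor Timp1, by 1.17 without Il18r1 and 1.52 in the Nlrp3 mutant, and its difference did not pass (difference -0.34, SE 0.35, adjusted p = 0.45). For elastic fibre and crosslinking genes, 0 of 21 rose and 0 fell without Il18r1, 3 rose and 16 fell in the Nlrp3 mutant, and 14 higher and 3 lower differences passed. The crosslinking enzyme Lox was among the lower ones, at 42.9, 52.7, 47.8 and 56.6 FPKM in the null mutants against 43.4, 43.9, 39.0 and 43.0 in the Il18r1 controls. For Lox the Nlrp3 mutants had 169, 199.8 and 177 FPKM against 46.6, 48.7 and 41.8 in the Controls (difference -1.74, SE 0.12, adjusted p = 2.1e-07), and so was elastin itself, Eln, with -0.20 without Il18r1 and 0.56 in the Nlrp3 mutant (difference -0.75, SE 0.19, adjusted p = 0.0051). Fbn2, a fibrillin, was among the higher ones, with -0.10 without Il18r1 and -1.31 in the Nlrp3 mutant (difference 1.21, SE 0.10, adjusted p = 7.1e-07).

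**Figure D4:**
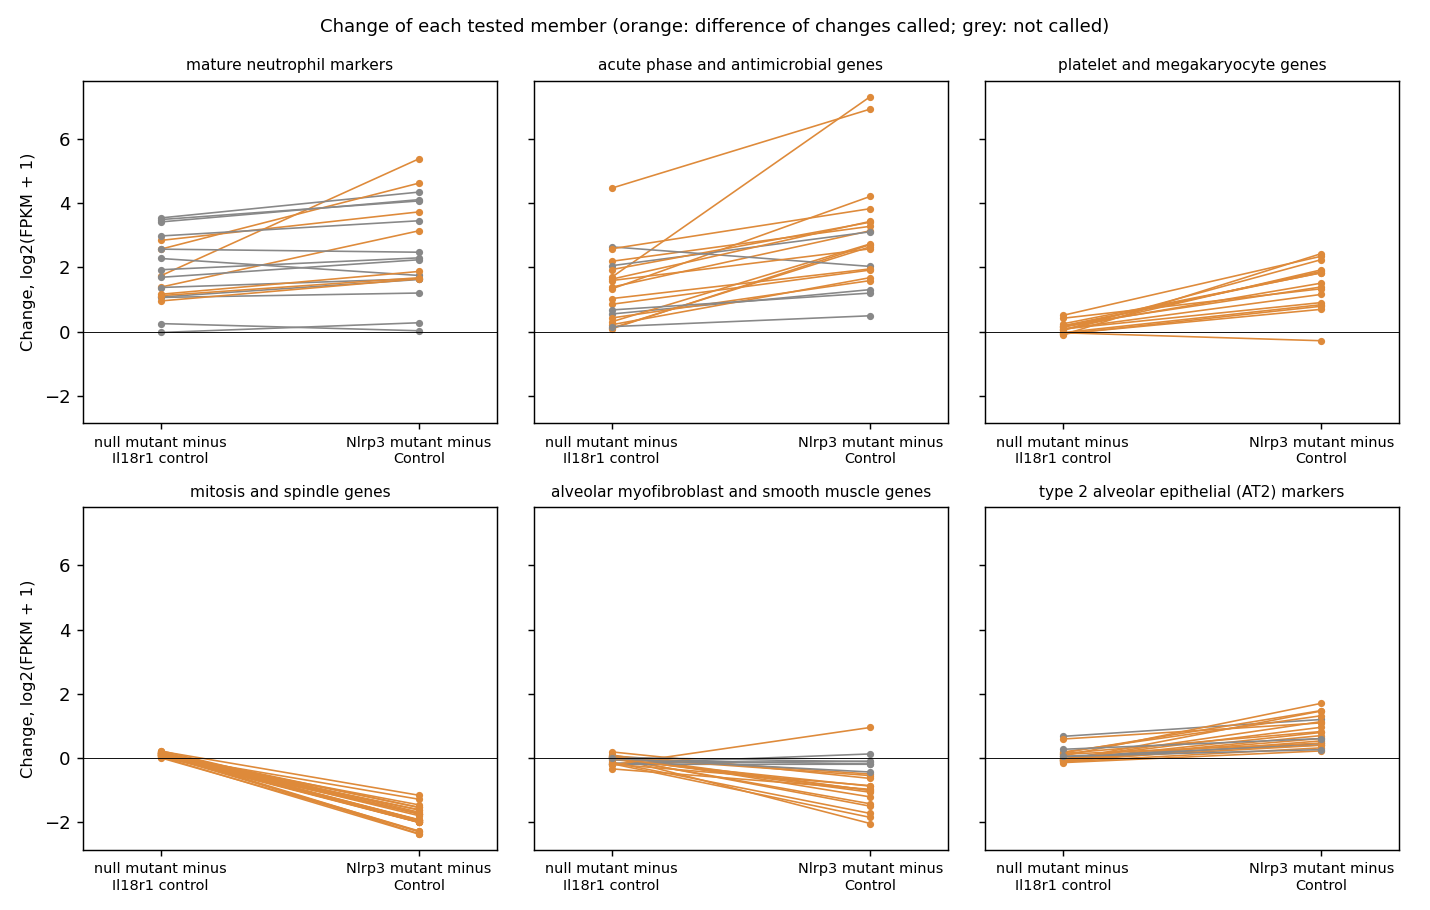
Change in log2(FPKM + 1) of each tested member of 6 lists, with null mutant minus Il18r1 control on the left of each panel and Nlrp3 mutant minus Control on the right, 1 line per gene, orange where the difference of changes passed. On the left, neutrophil members range between -0.03 and 3.54 and acute phase members between 0.08 and 4.47, whereas platelet members reach at most 0.50, mitosis members 0.23, myofibroblast members 0.19 and AT2 members 0.67.

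Cell division genes fell together in the Nlrp3 mutant. Of 29 mitosis and spindle genes, 0 rose and 0 fell without Il18r1 (median 0.12), 29 fell in the Nlrp3 mutant (median -1.94) and all 29 had a higher difference (median 2.04). Top2a, the topoisomerase that untangles sister chromatids, was at 24.6, 34.7, 27.3 and 26.0 FPKM in the null mutants against 22.9, 25.8, 26.6 and 24.5 in the Il18r1 controls. Top2a was at 5.74, 3.75 and 5.00 FPKM in the Nlrp3 mutants against 28.4, 32.3 and 25.9 in the Controls (difference 2.52, SE 0.17, adjusted p = 1.7e-07). Cdc20, an activator of the anaphase-promoting complex, was at 22.6, 30.5, 21.1 and 22.6 FPKM in the null mutants against 24.3, 23.4, 22.8 and 20.9 in the Il18r1 controls. For Cdc20 the Nlrp3 mutants had 6.36, 5.40 and 5.63 FPKM against 28.0, 28.9 and 22.7 in the Controls (difference 2.08, SE 0.16, adjusted p = 3.4e-07). Ube2c, the ubiquitin-conjugating enzyme of that complex, had changes of 0.00 without Il18r1 and -2.29 in the Nlrp3 mutant. Of 28 replication genes, 0 rose and 0 fell without Il18r1 (median 0.06), 27 fell in the Nlrp3 mutant (median -1.24) and 27 had a higher difference. Rrm2, a ribonucleotide reductase subunit, was at 23.4, 31.9, 25.9 and 25.9 FPKM in the null mutants against 23.4, 27.9, 27.9 and 23.7 in the Il18r1 controls. Rrm2 was at 5.89, 4.65 and 5.91 FPKM in the Nlrp3 mutants against 27.0, 32.1 and 28.6 in the Controls (difference 2.28, SE 0.15, adjusted p = 1.2e-07). The member that passed in neither was E2f2 (difference 0.19, SE 0.16, adjusted p = 0.36). Summed over the mitosis list, FPKM was 404 to 551 in the null mutants against 385 to 429 in the Il18r1 controls, and 79.2 to 116 in the Nlrp3 mutants against 442 to 512 in the Controls. Cdkn1a, a cyclin-dependent kinase inhibitor, went the other way, with 0.07 without Il18r1 and 1.33 in the Nlrp3 mutant (difference -1.26, SE 0.18, adjusted p = 7.2e-05). The list that holds Cdkn1a went in both directions. Of 17 tested CDK inhibitors and p53 targets, 0 passed without Il18r1, and 11 rose and 4 fell in the Nlrp3 mutant. Their difference was lower in 10 and higher in 3, and ranged between -1.26 and 2.16.

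The promoters of the mitosis genes share letters that the list did not use. The string TTTGAA, a core of the cell cycle homology region that DREAM and MuvB complexes bind, stood in 18 of 24 mitosis promoters (75.0%) and in 4893 of 27025 promoters (18.1%). CCAAT, the string that NF-Y binds, also stood in 18 of 24 (75.0%), against 37.9% in all. That share was not particular to mitosis genes. It was 83.3% in MHC class II, 75.0% in erythroid, 71.4% in circadian clock and 70.6% in sterol and fatty acid synthesis promoters. TTGCNNAA and TTCNNNGAA were in 0 of 24, and TGCNCNC in 16 of 24 (66.7%). Among replication genes TTTGAA was in 2 of 22 (9.1%) and CCAAT in 14 of 22 (63.6%). The 150 bases before the start of 3 mitosis genes are shown, with TTTGAA and CCAAT or their reverse complements, TTCAAA and ATTGG, in capitals:
Top2a (chr11:99024190-99024339, minus strand): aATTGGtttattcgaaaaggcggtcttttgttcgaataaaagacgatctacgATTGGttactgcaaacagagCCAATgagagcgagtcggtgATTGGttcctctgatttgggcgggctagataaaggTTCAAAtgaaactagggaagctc
Cdc20 (chr4:118437344-118437493, minus strand): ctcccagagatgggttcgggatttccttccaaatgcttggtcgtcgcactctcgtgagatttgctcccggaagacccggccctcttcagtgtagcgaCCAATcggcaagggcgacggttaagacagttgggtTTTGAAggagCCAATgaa
Ube2c (chr2:164769779-164769928, plus strand): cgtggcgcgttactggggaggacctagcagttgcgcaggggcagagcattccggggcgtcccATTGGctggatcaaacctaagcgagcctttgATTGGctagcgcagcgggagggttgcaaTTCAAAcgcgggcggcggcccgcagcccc
Each of the 3 holds 1 TTTGAA close to the start, and Top2a holds 4 CCAAT strings while Cdc20 and Ube2c hold 2 each, with no overlap between matches. Here too a match describes letters and is not evidence of binding.

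Further lists went in mixed directions. Of 26 sterol and fatty acid synthesis genes, 0 rose and 0 fell without Il18r1, and 4 rose and 16 fell in the Nlrp3 mutant. The difference was higher in 16 and lower in 2. Among the higher ones was Dhcr7 of cholesterol synthesis (0.02 without Il18r1 and -1.08 in the Nlrp3 mutant, difference 1.10, SE 0.11, adjusted p = 3.8e-06). Pan-endothelial genes had 8 higher and 2 lower differences of 18, general capillary genes 4 and 5 of 15, and aerocyte genes 5 and 8 of 16, while 0 of them passed without Il18r1. The medians of the capillary and aerocyte lists turn positive at equal total FPKM, and without null mutant 2, Il18r1 control 2 or 3 or Nlrp3 mutant 2 the count of higher pan-endothelial genes was 5. Aplnr, the apelin receptor, was at 98.3, 102, 92.7 and 101 FPKM in the null mutants against 106, 98.5, 95.3 and 116 in the Il18r1 controls. For Aplnr the Nlrp3 mutants had 36.1, 25.1 and 32.3 FPKM against 110.0, 98.0 and 85.8 in the Controls (difference 1.56, SE 0.15, adjusted p = 2.6e-06). Hypoxia and glycolysis genes had 1 higher and 9 lower differences of 21 (6 higher at equal total FPKM), among the lower ones Hk2, a hexokinase (0.26 without Il18r1 and 1.47 in the Nlrp3 mutant, difference -1.21, SE 0.18, adjusted p = 9.1e-05). Airway secretory genes ranged between -1.42 and 4.22 in their difference, with 2 higher and 5 lower of 15. Lists that can follow from dissection and handling were also read. Heart and skeletal muscle genes passed in 0 of 15 without Il18r1, and their summed FPKM was 310.2 to 521 in the null mutants against 153 to 705 in the Il18r1 controls, and 546 to 579 in the Nlrp3 mutants against 311 to 438 in the Controls. Immediate early genes passed in 0 of 21 without Il18r1 and had 6 lower differences, or 3 without Control 2.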

How the data were processed

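Total RNA of lung was prepared with RNeasy columns and Illumina mRNA Stranded Prep and sequenced as 50 bp paired ends on an Illumina NovaSeq instrument, per the labels' protocols. STAR and the build GRCm38 (mm10) are named in the submitters' processing notes, while no quantifier is given in the sources used here. The tables deposited by the authors hold values read here as FPKM from their range, since their headers name no unit, and the 2 tables were treated as normalized separately by the authors. The FPKM rest on unknown read totals, so depth is given only relative to another library, from the step between low values of the same gene. Of 24354 lines per table, 27 hold symbols turned into dates and were dropped, which left 24327 genes.

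A linear model of log2(FPKM + 1) was fitted with limma 3.58.1 (R 4.3.3) to the 14 libraries with 4 group means and a trend of variance with level, for 13818 genes, and adjusted by Benjamini-Hochberg. The tested contrast was the change without Il18r1 minus the change in the Nlrp3 mutant, and fold changes on this scale understate low genes. On simulated data with 200 genes changed of 13818 (10 draws), differences of 0.5, 1 and 2 were recovered in 63.6%, 91.9% and 97.2% of cases, and 6.22% of calls were false. In the data the difference passed in 6215 genes, far more than were changed in the simulation, so these rates need not hold for the reported calls.

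The authors' table of null mutant and Il18r1 control was deposited with a mean normalized count (signal) and a log2 fold change. It also holds the standard error on the log2 scale, a test score (stat) and p-values, per the file headers. Calls of that table were counted, and its log2 fold change and adjusted p are quoted for some genes only. Lines that name no gene hold 19.1% of its mean counts and were left out.

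Named genes are 7 of the pathway, the 10 most positive and 10 most negative differences that passed with a group mean of 5 FPKM or more, the 10 smallest differences among genes past 1 in both changes alike, genes with opposite changes, and up to 3 list members with the smallest p. A gene among these is not reported here. Other list members were chosen after their values were seen, and checks for single libraries cover the first 4 kinds. The comparison, its gene lists and tests were chosen with earlier results of these data known. Promoters were read from RefSeq tables (GRCm38.p6) with Python 3.11.15 and pandas 2.3.3. Alternatives covered the pseudocount, expression filter, scaling, joint or separate fits, a robust fit, the replicate block, single libraries left out, Xist-matched null mutants and stricter thresholds.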

Additional observations from a re-analysis of the deposited data

Results flagged for a closer look

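The change without Il18r1 and the change in the Nlrp3 mutant differed by a test of the difference itself in 3146 genes that were higher and 3069 that were lower. In the genes of the pathway the difference passed for Il18r1 (-1.70), Il18 (-0.95) and Lyz2 (-1.25) in log2 units. The most positive differences were those of Mir703 (16.39), Snora81 (5.50), Clca1 (4.22), Prss35 (2.97), Ptpn5 (2.94), Fam64a (2.85), Mb (2.80), Slitrk6 (2.63), Etv4 (2.55) and Top2a (2.52). Neither Mir703 nor Snora81 is called without Il18r1 in the authors' deposited table. The most negative were those of Serpina3n (-5.63), Chil3 (-4.81), Inmt (-4.06), Il1r2 (-3.65), Igfbp3 (-3.16), Ear6 (-3.12), Serpina3f (-3.07), Smoc2 (-3.02), Pdk4 (-2.93) and Gdpd2 (-2.92). Ccr2 (1.64) and Ndufab1 (0.59) passed in opposite directions in the 2 changes.

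In 76 groups of 4 libraries over 39 genes, the gap of the highest or lowest library to its neighbour was also set against the group's range, and 7 stood apart. Chance alone marks about 1 group in 20. In the null mutants these were null mutant 2 for Ptpn5, at 12.7 FPKM, null mutant 2 for Fam64a, at 35.2 FPKM, and null mutant 3 for Ear6, at 0.198 FPKM. In the Il18r1 controls they were Il18r1 control 4 for Chil3, at 22.6 FPKM, Il18r1 control 2 for Il1r2, at 0.422 FPKM, Il18r1 control 1 for Mmp9, at 3.04 FPKM, and Il18r1 control 1 for Ugt1a7c, at 1.76 FPKM.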

How the results depend on the processing

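Of 186 named genes whose difference passed, 0 turned direction under any of 25 alternatives, and 18 lost the call in at least 1. Many of them were named for a large difference or a small p in these same libraries. Their stable direction thus follows largely from the choice and does not speak for other genes. At equal total FPKM the difference was higher in 5596 and lower in 1637 genes, the change without Il18r1 was lower in 10 and the change in the Nlrp3 mutant was higher in 2582. With a log2 size of at least 1, 497 genes were higher and 400 lower in the difference, 102 and 0 without Il18r1, and 587 and 514 in the Nlrp3 mutant. The 275 genes higher without Il18r1 became 162 with a mean of at least 5 FPKM, 144 with null mutants 2 and 4 alone and 169 at an adjusted p under 0.01. The 22 lower ones became 14, 17 and 2, and 56 in the robust fit with array weights. The cause was not tested, except that the first of these settings tests fewer genes.

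With 1 library left out at a time, the difference was higher in 2795 to 3136 and lower in 2658 to 3098 genes, the change without Il18r1 higher in 194 to 314 and lower in 7 (without Il18r1 control 4) to 33 (without Nlrp3 mutant 2), and the change in the Nlrp3 mutant higher in 3616 to 4140 and lower in 3752 to 4228. Differences near 0 that did not pass changed sign. With null mutants 2 and 4 alone Nlrp3 was at -0.0057, Tnf at -0.2363 and Spi1 at -0.1871. In the robust fit Tnf was at -0.1318, Spi1 at -0.1158 and Trem3 at -0.08289. At equal total FPKM Igsf6 was at 0.1784, Emilin2 at 0.1251, Selplg at 0.06165 and Ugt1a7c at 0.005609. With null mutants 1 and 3 alone Igsf6 was at 0.1699 and Emilin2 at 0.03395, and with a pseudocount of 0.1 Igsf6 was at 0.0441. With 1 library left out they ranged over -0.09096 to 0.2258 for Nlrp3, -0.07705 to 0.09588 for Tnf, -0.1666 to 0.1418 for Spi1, -0.2648 to 0.1631 for Igsf6, -0.2598 to 0.1093 for Emilin2, -0.04229 to 0.2141 for Mmp9 and -0.2043 to 0.5366 for Trem3.

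Replicate numbers were not treated as pairs, since same-numbered libraries correlated between -0.0899 and 0.263 in their deviations from the group means. With a replicate block the difference was higher in 3067 and lower in 2965 genes, the change without Il18r1 in 267 and 17, and the change in the Nlrp3 mutant in 3996 and 4102. Groups of 3 and 4 libraries, unknown read totals and values near 0 FPKM limit what can pass.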

Other observations

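Airway secretory genes were uneven. Cyp2f2, a monooxygenase of club cells, was at 345, 305, 273 and 292 FPKM in the null mutants against 405, 395, 386 and 326 in the Il18r1 controls, and at 529, 676 and 600.3 FPKM in the Nlrp3 mutants against 255, 257 and 330.1 in the Controls (difference -1.41, SE 0.16, adjusted p = 8.6e-06), whereas Scgb3a1, a secretoglobin of upper airways, had changes of 1.97 without Il18r1 and 3.01 in the Nlrp3 mutant that left its difference below the threshold (difference -1.05, SE 1.14, adjusted p = 0.48). Vcan, a proteoglycan of matrix and monocytes, was at 42.2, 44.1, 42.8 and 42.0 FPKM in the null mutants against 39.2, 43.8, 45.4 and 35.4 in the Il18r1 controls, and at 15.3, 9.25 and 11.2 FPKM in the Nlrp3 mutants against 36.1, 39.2 and 40.6 in the Controls (difference 1.71, SE 0.17, adjusted p = 2.9e-06). Cxcl17, a mucosal chemokine, was at 12.2, 9.47, 18.0 and 11.4 FPKM in the null mutants against 4.97, 9.64, 8.64 and 6.05 in the Il18r1 controls, and at 35.2, 40.3 and 34.1 FPKM in the Nlrp3 mutants against 4.84, 5.06 and 7.63 in the Controls (difference -1.75, SE 0.30, adjusted p = 0.00036). These adjusted p-values are from limma. Across the 13818 genes the 2 changes had a Pearson r of 0.391 and a Spearman rho of 0.211, given as a description since genes are not independent replicates.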
